A study of Mus musculus with 6 samples.

Results

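Protein arginine methyltransferases place methyl groups on arginine side chains of histones and RNA-binding proteins, with S-adenosylmethionine as the donor. Described here are the 7 genes of this family other than Prmt5 that were taken by symbol from a table of 54532 gene rows, namely Prmt1, Prmt2, Prmt3, Carm1, Prmt6, Prmt7 and Prmt9. Each symbol had 1 row, and all 7 passed the filter on low counts, which left 15685 genes. They were read in activated CD4 T cells with and without Prmt5, and the question is whether any of them was higher where Prmt5 was lost.

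The enzymes fall into types by their product. All of them can make monomethylarginine; type I enzymes go on to asymmetric dimethylarginine, type II enzymes to symmetric dimethylarginine, and the type III enzyme stops at the single methyl group. Prmt5 is the main type II enzyme and Prmt9 is the other, Prmt7 is of type III, and Prmt1, Prmt2, Prmt3, Carm1 and Prmt6 are of type I. In T cells, Prmt5 is known for its rise on activation and for the methylation of spliceosomal Sm proteins.

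CD4 T cells came from spleen and lymph nodes of C57BL/6 mice and were activated for 48 h on plates coated with antibodies to CD3 and CD28, with no cytokine added. Controls carried the genotype iCD4-PRMT5fl/fl, with floxed alleles (replicates 1, 2 and 4), and knockouts carried iCD4-PRMT5delta/delta, with deleted alleles (replicates 1, 4 and 5). The labels give neither the age of the mice nor the driver that deleted the alleles, nor how many mice stand behind a library. The series calls the libraries biological replicates. The column names carry 1 of 2 tags, which group the libraries. Batch A holds the first pair of controls together with knockout 1, and batch B holds control 4 with the later pair of knockouts, 4 and 5; none of the sources used says what the tags stand for.

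Gene counts per library lay between 29623513 and 39832588. The 8 markers of CD4 T cells were detected in every library and summed to between 1766 and 2509 CPM (counts scaled to a common library size), against 7.07 to 19.6 CPM for the CD8 pair. The 7 B cell markers summed to 3.99 to 5.55 CPM in controls and to 19.4, 4.86 and 21.2 CPM in knockouts 1, 4 and 5. The 6 macrophage and monocyte markers summed to 4.01 to 7.497 CPM in controls and to 6.22 to 21.6 CPM in knockouts, and the 6 dendritic cell markers to 3.23 to 4.86 and 3.88 to 10.4 CPM. The NK cell list summed to 23.7 to 65.4 CPM in controls and 25.7 to 79.7 CPM in knockouts. Most of that sum was Eomes, with means of 34.8 CPM in controls and 31.9 CPM in knockouts. Klrk1 had means of 5.76 and 11.9 CPM, and the rest of the list was far lower. Neutrophil and erythroid markers stayed at or below 0.846 CPM in every library. The Y-linked gene Ddx3y had 0 counts in control 1 and knockout 4 and between 902 and 2389 counts in the other libraries. Xist, a transcript of female cells, had between 15012 and 44830 counts in every library, also in those with Ddx3y counts. Of all genes tested, 5045 (32.2%) differed between the batches with genotype in the model. The part that these differences play in the values below was not tested.

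Prmt5 was read first, as the targeted gene. Controls 1, 2 and 4 had 133, 132 and 98.1 CPM, whereas the 3 knockouts, in the order 1, 4, 5, had 41.1, 34.2 and 36.7 CPM. The level in knockouts was 0.308 of that in controls (95% interval 0.235 to 0.403), and the groups did not overlap. The edgeR adjusted p was 0.109 on genotype alone, where no gene passed, and 0.00312 with the batch term. In bulk RNA, fewer cells with a transcript and less of it in each cell cannot be told apart, here and for every gene below.

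None of the 7 other enzymes passed the test in either fit. On genotype alone, edgeR called 0 of the 7 genes and 0% of all 15685 genes at an adjusted p under 0.05, with 1780 genes and 0 members at an unadjusted p under 0.05; DESeq2 called 442 genes and limma-voom 0, and neither called a member. With the batch as a term beside genotype, edgeR called 6.50% of all genes (2.87% higher, 3.63% lower in knockouts) and 0 of the 7 members, with 2 of 7 members at an unadjusted p under 0.05, Prmt6 on the higher side and Prmt9 on the lower. At that unadjusted threshold stood 4561 genes, 29.1% of all, so the members' share is that of the background. DESeq2 with that term called both, and it called 15.2% of all genes. The median log2 fold change of the 7, knockout over control, was -0.20 from genotype alone and 0.01 once the batch entered, against 0.01 and 0.02 over all genes. Leaving out 1 library moved the genotype-alone median from -0.31 (without control 4) to -0.025 (without control 1), and it was -0.041 without knockout 5.

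**Figure D1:**
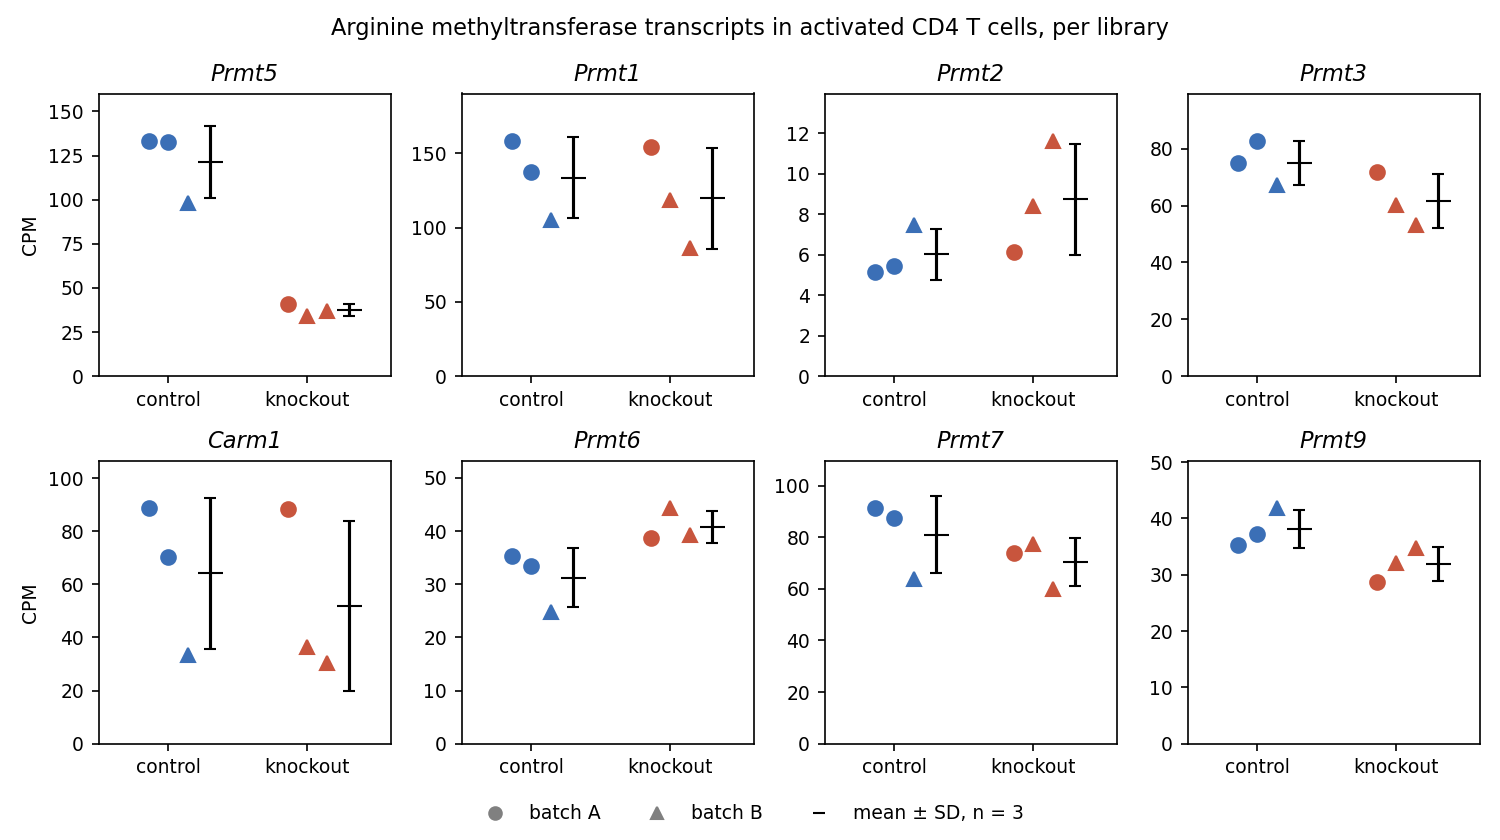
CPM (TMM-scaled, vertical axis from 0) of Prmt5 and the 7 other enzymes in each control and knockout library, with circles for batch A, triangles for batch B and black bars for mean ± SD (n = 3). Prmt5 parts the genotypes widely, Prmt6 is higher and Prmt9 lower in every knockout, and Carm1 follows the batch rather than the genotype.

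Prmt6 was the one enzyme that stood higher in every knockout. It is a type I enzyme of the nucleus that marks arginine on histone H3. It had 35.3, 33.4 and 24.9 CPM in controls 1, 2 and 4, and 38.7, 44.3 and 39.3 CPM in knockouts 1, 4 and 5. The lowest knockout lay above the highest control, though by a margin smaller than the spread among controls. Controls averaged 31.2 ± 5.58 CPM and knockouts 40.8 ± 3.08 CPM (SD, n = 3 each). On the log2 scale the change was 0.39 from genotype alone (SE 0.17, edgeR adjusted p = 0.460) and 0.46 once the batch entered (SE 0.15, edgeR adjusted p = 0.0985), which is 1.38-fold with a 95% interval of 1.08 to 1.76. The size differed between the batches: the difference of mean log2 CPM was 0.17 in batch A and 0.75 in batch B, where control 4 is the only control and has the lowest value of the 6 libraries. Without control 4 the batch-term value was 0.16, and without knockout 1 it was 0.73. Scaled to the ERCC spike-in RNAs, the value was -0.24 from genotype alone and 0.01 once the batch entered, where the medians over all genes were -0.59 and -0.44.

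Prmt9, the other type II enzyme, stood lower in every knockout. It methylates the splicing factor SF3B2. Its levels were 35.3, 37.2 and 41.8 CPM in controls 1, 2 and 4 and 28.8, 32.0 and 34.8 CPM in knockouts 1, 4 and 5. The groups did not overlap, but control 1 and knockout 5 were close. The means were 38.1 ± 3.35 and 31.8 ± 3.01 CPM (SD, n = 3). The log2 fold change was -0.26 from genotype alone (SE 0.15, edgeR adjusted p = 0.566) and -0.33 once the batch entered (SE 0.10, edgeR adjusted p = 0.0852), and it was -0.33 inside each batch. The batch-term fold was 0.796 with a 95% interval, not adjusted over genes, of 0.675 to 0.938. The interval on genotype alone reached 1.06-fold. Prmt6 and Prmt9 were the 2 of 7 members whose groups did not overlap. Over all genes tested this held for 18% (9.35% higher and 8.68% lower in knockouts).

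Prmt1, which makes most of the asymmetric dimethylarginine of mammalian cells, was not separated by genotype. Its values were 159, 138 and 105 CPM across controls 1, 2 and 4. Knockouts 1, 4 and 5 had 154, 119 and 86.2 CPM. High and low libraries occurred in both genotypes, and the libraries of batch A were higher than those of batch B. The log2 fold change was -0.16 from genotype alone (95% interval -0.73 to 0.41) and 0.01 once the batch entered (-0.30 to 0.33). The upper ends of these intervals are 1.33-fold and 1.25-fold, and the edgeR adjusted p-values were 0.887 and 0.962. Inside the batches the differences were 0.06 and -0.05.

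Carm1, the type I enzyme named as a coactivator of nuclear receptors, varied more than any other member, and it did so by batch. It had 88.7 and 70.3 CPM in controls 1 and 2 and 88.5 CPM in knockout 1, but 33.2 CPM in control 4 and 36.3 and 30.4 CPM in knockouts 4 and 5. Every library of batch A was above every library of batch B, with a ratio of mean CPM of 2.48. With genotype in the model, batch B was lower by a log2 fold change of -1.33 (SE 0.13, edgeR adjusted p = 0.00172). Between genotypes the log2 fold change was -0.31 on genotype alone, with a 95% interval from -1.45 to 0.83, and 0.08 with the batch term, with an interval from -0.21 to 0.37 (edgeR adjusted p = 0.891 and 0.704). Leaving out 1 library moved the genotype-alone value from -0.95 (without knockout 1) to -0.0023 (without control 1), with -0.63 without control 4. The batch term narrowed the upper end of the 95% interval from 1.78-fold to 1.30-fold. Batch B also differed in Prmt1 (-0.54, edgeR adjusted p = 0.0206) and in Prmt2 (0.60, 0.0424), and the other 4 members did not pass this test.

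Prmt3 and Prmt2 complete the type I enzymes. Prmt3, a cytosolic enzyme whose known substrate is the ribosomal protein RPS2, had 74.9, 82.9 and 67.4 CPM in controls 1, 2 and 4 and 71.9, 60.3 and 53.1 CPM in knockouts 1, 4 and 5. The genotypes overlapped through knockout 1, which lay above control 4. Its log2 fold change was -0.28 from genotype alone and -0.19 once the batch entered (95% interval -0.42 to 0.03, edgeR adjusted p = 0.563 and 0.236). The upper end of the batch-term interval, not adjusted over genes, was 1.02-fold, and that on genotype alone was 1.06-fold. Prmt2, a weak enzyme that carries an SH3 domain, had 5.16, 5.44 and 7.48 CPM in controls 1, 2 and 4 and 6.14, 8.42 and 11.6 CPM in knockouts 1, 4 and 5. The groups overlapped, and the values rest on 157 to 366 reads per library. Its log2 fold change was 0.53 from genotype alone and 0.32 once the batch entered (95% interval -0.11 to 0.75; edgeR adjusted p = 0.557 and 0.296). The upper end, 1.68-fold with the batch term, was the highest of the members after Prmt6.

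Prmt7, the type III enzyme, had 91.3, 87.6 and 63.8 CPM in controls 1, 2 and 4. In knockouts 1, 4 and 5 it had 73.9, 77.4 and 59.8 CPM. All knockouts lay below controls 1 and 2, and control 4 lay among the knockouts. The log2 fold change was -0.20 from genotype alone and -0.09 once the batch entered (95% interval -0.40 to 0.23; edgeR adjusted p = 0.753 and 0.713), with -0.28 inside batch A and 0.09 inside batch B. Prmt8, an enzyme of neurons that was not among the 7, had 0, 1 and 1 reads in controls 1, 2 and 4 and 0, 0 and 2 reads in knockouts 1, 4 and 5. It did not pass the filter, and no fold was computed for it.

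**Figure D2:**
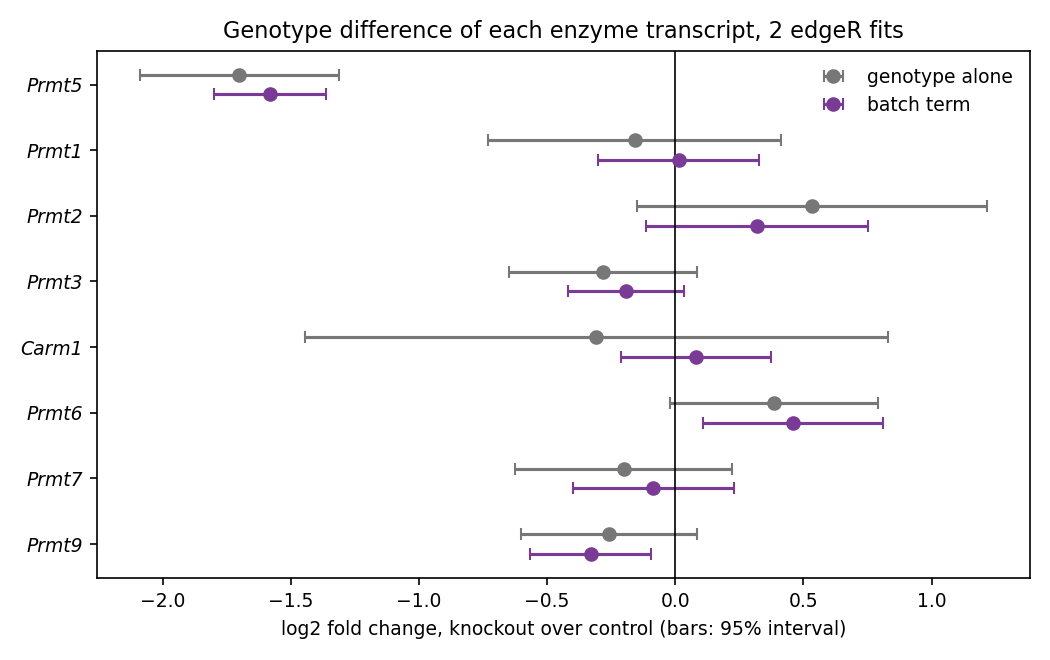
Log2 fold change, knockout over control (horizontal axis), of Prmt5 and the 7 other enzymes in the edgeR fit on genotype alone (grey) and with the batch term (purple), with bars for the 95% interval. With the batch term the intervals of Prmt6 and Prmt9 leave out 0 on opposite sides, before adjustment, as do those of 29.1% of all genes, and the interval of Carm1 is much narrower than on genotype alone.

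Levels of different enzymes can be compared once counts are divided by gene length, as RPKM, reads per kilobase of the gene and scaled for library size. On that scale Prmt1 was the highest of the 7 in all 6 libraries, with 62.3 ± 12.6 RPKM in controls and 55.8 ± 15.9 RPKM in knockouts (SD, n = 3). Prmt3 followed with a mean over the 6 libraries of 23.3 RPKM, then Prmt7 with 21.8, Carm1 with 16.2, Prmt6 with 11.8, Prmt9 with 8.997 and Prmt2 with 3.51 RPKM. Only the first and the last step of this order, Prmt1 above Prmt3 and Prmt9 above Prmt2, parted the ranges of the 2 neighbours. Prmt3 and Prmt7 kept their order in 4 of 6 libraries, and so did Carm1 and Prmt6, while Prmt7 was above Carm1, and Prmt6 above Prmt9, in 5 of 6. In controls Prmt5 held the second place, after Prmt1, at 45.1 ± 7.49 RPKM. In knockouts it stood at 13.9 ± 1.30 RPKM, next to Prmt6 at 13.3 ± 1.01 RPKM. The order, and the sums and shares below, rest on the deposited gene lengths. These were 2937 bases for Prmt3 and 3472 for Prmt7, where the annotated exons together hold 5996 and 6125 bases. RPKM on those exon lengths was not computed, and the order can depend on the length used.

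The changes in RPKM are given side by side as a description, since RPKM measures transcript and not enzyme activity. The mean of Prmt5 fell by 31.2 RPKM. Prmt6 was 3.13 RPKM and Prmt2 1.29 RPKM higher in knockouts on average, and the other 5 members were lower by the mean on genotype alone. The 7 members summed to 174, 160 and 122 RPKM in controls 1, 2 and 4 and to 165, 135 and 111 RPKM in knockouts 1, 4 and 5. The sums overlapped between genotypes and were lower in batch B within each of them. The mean was lower in knockouts (137 ± 27.1 against 152 ± 26.8 RPKM, SD, n = 3), which also hold more libraries of batch B. The part of the batch in this difference was not tested. Of the summed RPKM of all 8 enzymes, Prmt5 took 22.2% to 23.5% in controls and 8.46% to 10.9% in knockouts. Prmt6 took 5.13% to 5.21% in controls and 7.01%, 9.80% and 10.3% in knockouts 1, 4 and 5. These shares add up to a fixed total, so they are not independent of the fall of Prmt5 and are given as a description.

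**Figure D3:**
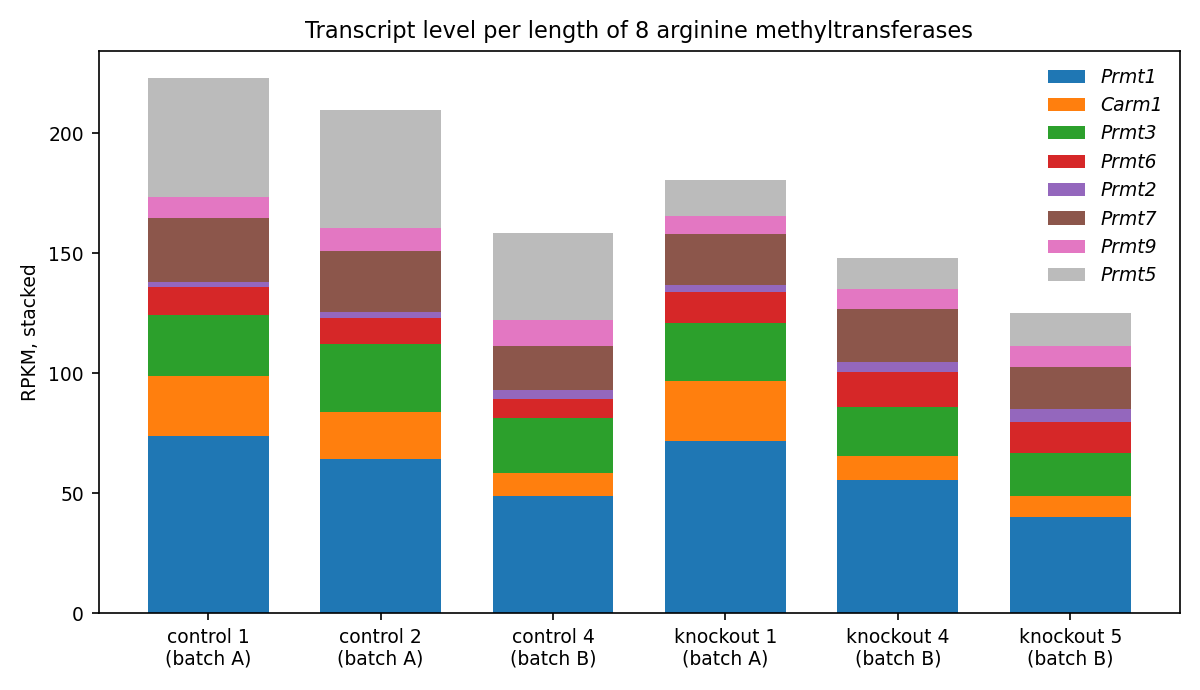
RPKM of 8 arginine methyltransferases stacked for each library (vertical axis from 0). The grey block of Prmt5 shrinks from a mean of 45.1 to 13.9 RPKM, and the stacks of batch B are shorter than those of batch A within each genotype.

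The authors' deposited table compares unstimulated with activated cells too; the columns of single unstimulated libraries match none of the samples used here and were not analysed. In the authors' deposited table, Prmt1 was 4.96-fold higher in activated than in unstimulated controls and 4.01-fold higher in knockouts (adjusted p = 1.13e-22 and 1.97e-17). Carm1 was 4.34-fold and 2.83-fold higher in the authors' deposited table (adjusted p = 7.54e-08 and 0.000145), and Prmt7 was 2.75-fold and 2.14-fold higher (4.25e-15 and 4.48e-09). Prmt5 was 3.19-fold higher on activation in controls and 1.67-fold higher in knockouts in the authors' deposited table. Of the 7 members, Prmt1, Carm1 and Prmt7 were thus higher after activation in both genotypes.

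Prmt9 went the other way in the authors' deposited table, with activated over unstimulated log2 fold changes of -0.30 in controls and -0.57 in knockouts (adjusted p = 0.0129 and 1.59e-06). Prmt2 was lower on activation in controls (-0.64, adjusted p = 0.0192) and did not pass in knockouts (-0.10, 0.745), again from the authors' deposited table. Prmt6 passed in knockouts (0.49, adjusted p = 0.00660) and not in controls (0.26, 0.147) in the authors' deposited table, and whether these responses differ between genotypes was not tested. Prmt3 passed in neither genotype there (0.18 and -0.18, adjusted p = 0.257 in both). So 5 of 7 members were called in each genotype in the authors' deposited table, with 3 higher and 2 lower in controls and 4 higher and 1 lower in knockouts. That table calls 70.5% of all genes in controls (27.7% higher on activation, 42.8% lower) and 61.1% in knockouts (25.8% higher, 35.4% lower). These 2 comparisons share their activated libraries with the comparison of genotypes.

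**Figure D4:**
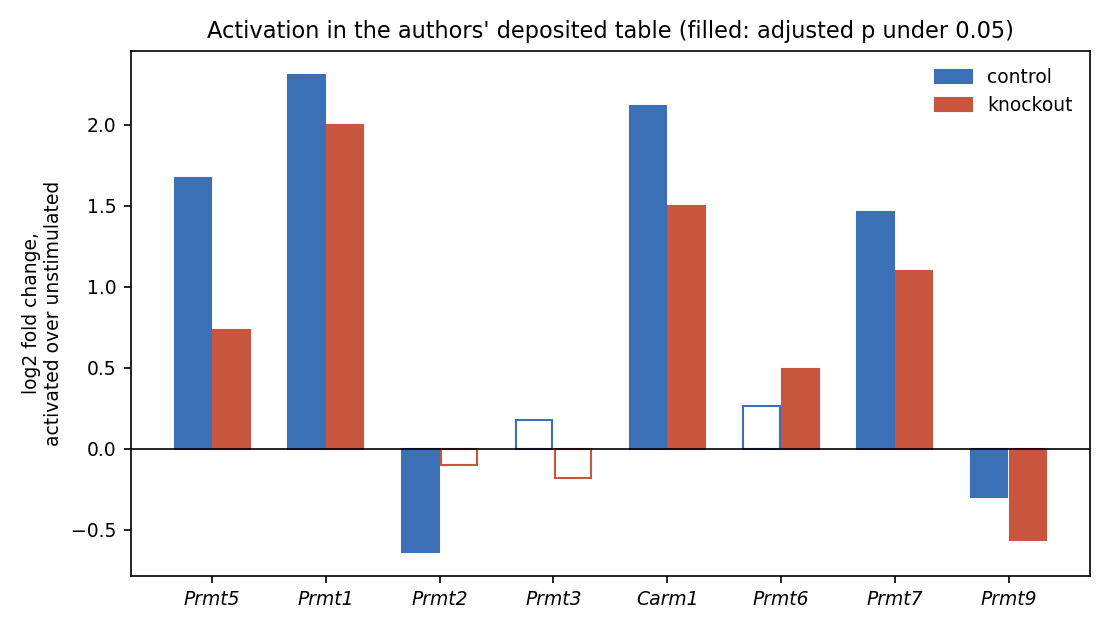
Log2 fold change of activated over unstimulated cells (vertical axis) for Prmt5 and the 7 other enzymes, from the authors' deposited table, in control (blue) and knockout (red) cells; filled bars have an adjusted p under 0.05. Prmt1, Carm1 and Prmt7 carry the tallest bars of the 7 in both genotypes, and Prmt9 points down in both.

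Between genotypes, the authors' deposited table called none of the 7 enzymes. In activated cells its adjusted p-values lay between 0.0982, for Prmt9, and 0.762, for Prmt1, where 6.10% of all genes with a value were called. Its log2 fold changes, turned to knockout over control, were 0.23 for Prmt6 and -0.24 for Prmt9. For Carm1 it lists -0.05, beside authors' means of the normalised signal of 1814 in control and 1426 in knockout cells. These fold changes are thus not plain ratios of the means. How they were computed was not examined, and their size is not comparable with the edgeR values above. In unstimulated cells the adjusted p in the authors' deposited table was 0.9999 for each of the 7, and 0.0151% of genes were called. The log2 fold changes of that comparison do not measure size: 94.3% of genes, the 7 members included, are listed within 1e-05 of 0. Prmt5 was called in unstimulated cells in the authors' deposited table, at a log2 fold change of 0.74 control over knockout (adjusted p = 0.000810).

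Start regions are shown for Prmt1 and Prmt7, which were higher after activation in the authors' deposited table, and for Prmt6 and Prmt9. Prmt6 stood higher and Prmt9 lower in every knockout, but neither passed in either edgeR fit. Given are the 250 bases upstream of the RefSeq start on GRCm38.p6, 5′ to 3′ on the gene's strand, in the first listed window of each symbol. The promoter table matched 6 of the 7 members, all but Carm1. Among those shown, the windows of Prmt1 and Prmt7 reach past the gene starts given below, at 44986568 and 106210936. Part of each of these windows, with some of the marked matches, thus lies inside the annotated gene. Capitals mark matches, on either strand, to the E box CACGTG, the GC box GGGCGG, the CCAAT box, the cAMP response element TGACGTCA or the NRF1 site (GCGC, any base, TGCGC), which may overlap.
Prmt1, chr7:44986421-44986670, minus strand: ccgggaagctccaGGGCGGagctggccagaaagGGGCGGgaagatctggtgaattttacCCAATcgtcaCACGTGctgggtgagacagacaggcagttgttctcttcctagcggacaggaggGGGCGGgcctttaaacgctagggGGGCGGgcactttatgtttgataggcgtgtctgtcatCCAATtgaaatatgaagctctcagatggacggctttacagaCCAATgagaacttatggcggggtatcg
Prmt7, chr8:106210804-106211053, plus strand: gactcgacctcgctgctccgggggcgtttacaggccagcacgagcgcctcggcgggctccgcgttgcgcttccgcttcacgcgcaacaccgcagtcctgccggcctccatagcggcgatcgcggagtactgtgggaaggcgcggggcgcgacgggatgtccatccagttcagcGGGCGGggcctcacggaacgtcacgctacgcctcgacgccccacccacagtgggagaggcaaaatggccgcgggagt
Prmt6, chr3:110251000-110251249, minus strand: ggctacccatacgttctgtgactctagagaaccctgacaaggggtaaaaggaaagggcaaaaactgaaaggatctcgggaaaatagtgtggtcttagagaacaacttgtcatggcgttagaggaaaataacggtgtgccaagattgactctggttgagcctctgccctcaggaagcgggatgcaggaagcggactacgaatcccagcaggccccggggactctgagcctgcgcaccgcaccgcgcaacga
Prmt9, chr8:77549147-77549396, plus strand: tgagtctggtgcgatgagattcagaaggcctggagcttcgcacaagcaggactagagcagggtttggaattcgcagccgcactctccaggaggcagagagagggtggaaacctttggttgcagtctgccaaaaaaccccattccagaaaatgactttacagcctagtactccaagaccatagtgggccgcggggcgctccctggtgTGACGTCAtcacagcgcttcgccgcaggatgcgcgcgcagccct
Prmt1 held 1 E box, 4 GC boxes and 3 CCAAT boxes, Prmt7 held 1 GC box, Prmt9 held 1 cAMP response element 44 bases before the start, and Prmt6 held none of the 5. Of 32851 such windows in the table, 6.02% hold the E box, 32.7% the GC box, 33.9% the CCAAT box, 1.55% the cAMP response element and 3.74% the NRF1 site. Among the members not shown, Prmt3 held 1 E box, 1 GC box and 1 CCAAT box, and Prmt2 held 2 NRF1 sites, 1 GC box and 1 CCAAT box. A match is a run of letters and says nothing of binding.

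On GRCm38, with GENCODE M21 positions, Prmt1 (ENSMUSG00000109324.2) spans 44975989 to 44986568 on the minus strand of chromosome 7, and Prmt3 (ENSMUSG00000030505.17) spans 49778346 to 49858265 on the plus strand of the same chromosome. Prmt7 (ENSMUSG00000060098.11) and Prmt9 (ENSMUSG00000037134.17) lie on the plus strand of chromosome 8, at 106210936 to 106252794 and 77549397 to 77581338. Prmt6 (ENSMUSG00000049300.11) lies on the minus strand of chromosome 3, at 110246109 to 110250998, Carm1 (ENSMUSG00000032185.15) on the plus strand of chromosome 9, at 21546894 to 21592623, and Prmt2 (ENSMUSG00000020230.15) on the minus strand of chromosome 10, at 76207222 to 76237865. Exons of Prmt6 share 984 bases with the antisense gene C130013H08Rik, which had 39 to 82 reads per library against 960 to 1532 for Prmt6. Exons of Carm1 share 1025 bases with Yipf2 on the other strand, which had 135 to 460 reads against 956 to 2796. The libraries keep strand, but no source used says whether the counting did, so reads in the shared stretches are uncertain.

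Genes whose profile over the 6 libraries was closest to each member were named by the root mean square distance of log2 CPM, each gene centred on its own mean, among 9368 genes. Closest to Prmt6 were Txlna (0.04) and Hras (0.05), and closest to Prmt9 were Zfp39 (0.02) and Zbtb8os (0.03). Prmt1 was closest to Lrrc59 (0.04) and Tomm40 (0.04), Carm1 to Ubap2 (0.05) and Tcof1 (0.05), and Prmt7 to Npepps (0.02) and Dkc1 (0.03). Prmt2 was closest to Gimap6 (0.03) and Ccdc157 (0.04), and Prmt3 to Fbxo31 (0.02) and Kctd3 (0.05). The members' own root mean square deviation from a flat profile ran from 0.17 for Prmt9 to 0.66 for Carm1 on the same log2 scale.

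The genes around the enzymes gave few calls, all of them with the batch term; on genotype alone no list had one. Of the other 4 genes of the Prmt5 complex list, the partner Wdr77, the adaptors Clns1a and Coprs and the kinase gene Riok1, 0 passed. Clns1a, which brings Sm proteins to Prmt5, had a batch-term log2 fold change of -0.23 and Coprs, a histone-directing partner, had -0.58 (edgeR adjusted p = 0.204 and 0.332). Coprs was near 1.66 CPM in control and 1.29 CPM in knockout libraries. Of the other arginine methyltransferases and the genes for removal or conversion of methylarginine, 6 of 8 were tested and 0 passed. Mettl23, which encodes an arginine methyltransferase outside the PRMT family, stood at 31.3 ± 4.52 CPM in control and 25.1 ± 2.59 CPM in knockout libraries, with a batch-term log2 fold change of -0.41 (edgeR adjusted p = 0.0601). Jmjd6, reported as an arginine demethylase and lysyl hydroxylase, had -0.38 and the peptidylarginine deiminase gene Padi2 had 0.32 (edgeR adjusted p = 0.244 and 0.350).

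Among 8 genes for proteins that bind methylarginine, 1 rose and 1 fell with the batch term, against 2.87% and 3.63% of all genes. Smndc1, a Tudor-domain splicing factor, stood at 57.2 ± 14.1 CPM in control and 79.6 ± 12.1 CPM in knockout libraries and rose by a log2 fold change of 0.67 (edgeR adjusted p = 0.0238). Tdrkh, a Tudor-domain protein of the piRNA pathway, stood at 12.2 ± 2.93 and 8.95 ± 2.21 CPM, values that overlap. It fell by 0.64 on the log2 scale (edgeR adjusted p = 0.0449). Smn1, whose product binds methylated Sm proteins, had 0.39 and did not pass (edgeR adjusted p = 0.139). The list median was 0.13, against 0.02 over all genes.

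Of 16 genes reported here for known substrates of the 7 enzymes, 0 rose and 1 fell with the batch term, against 2.87% and 3.63% of all genes. Taf15, an RNA-binding protein, had 62.4 ± 24.0 CPM in control and 33.9 ± 12.8 CPM in knockout libraries, values that overlap. With the batch term it fell by 0.52 on the log2 scale (edgeR adjusted p = 0.0363). Ewsr1, another RNA-binding protein, had -0.25 and did not pass (edgeR adjusted p = 0.147). Trp53bp1, a DNA repair protein, had 0.32 and did not pass (edgeR adjusted p = 0.0911). Sf3b4, a Carm1 substrate, had 0.61 (edgeR adjusted p = 0.0558), and Sf3b2, the substrate of Prmt9, had 0.19 (edgeR adjusted p = 0.304). The median of the list was 0.06.

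Of 11 regulators and partners of the enzymes, 10 were tested and 1 rose with the batch term, against 2.87% of all genes. Crebbp, an acetyltransferase that works with Carm1 at nuclear receptors, had 125 ± 55.0 CPM in control and 127 ± 66.2 CPM in knockout libraries, values that overlap, and rose by a batch-term log2 fold change of 0.44 (edgeR adjusted p = 0.0446). Ncoa2, a nuclear receptor coactivator, had 0.39 and Cnot7, a deadenylase that binds the Prmt1 partners Btg1 and Btg2, had -0.33; neither passed (edgeR adjusted p = 0.0686 and 0.108). Of 13 genes of methyl donor supply, 1 fell, against 3.63% of all genes. Ahcyl1, a relative of the enzyme that clears S-adenosylhomocysteine, stood at 156 ± 3.93 CPM in control and 109 ± 6.27 CPM in knockout libraries and fell by 0.51 on the log2 scale (edgeR adjusted p = 0.0273). Its paralogue Ahcyl2 had 0.42, and Slc3a2, the heavy chain of amino acid carriers, had -0.40, and neither passed (edgeR adjusted p = 0.0575 and 0.0551). Mat2a, which makes S-adenosylmethionine, had 0.18 (edgeR adjusted p = 0.418).

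**Figure D5:**
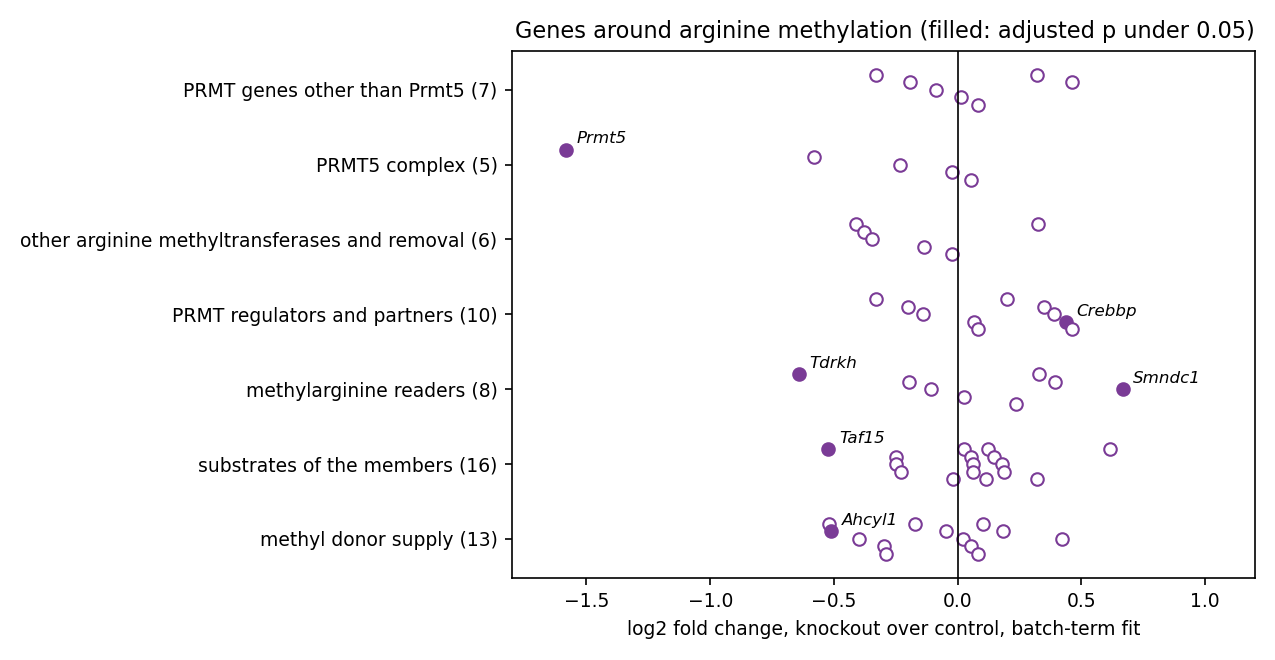
Log2 fold change, knockout over control, with the batch term (horizontal axis) of each tested gene in 7 lists around arginine methylation; filled points have an edgeR adjusted p under 0.05 over all genes and are named. The filled points are Prmt5, Tdrkh, Taf15 and Ahcyl1 on the lower side and Smndc1 and Crebbp on the higher, and no point of the 7 enzymes other than Prmt5 is filled.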

How the data were processed

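Stranded libraries were prepared from whole-cell RNA after removal of ribosomal RNA, per the labels' protocols. The submitters' processing notes name STAR, featureCounts, DESeq, DESeq2 and GRCm38.p3. From the deposited table, the authors' raw counts of the 6 activated libraries were tested. Their normalised values (signal) are those counts divided by 1 size factor per library, and the authors' log2 fold changes and adjusted p-values are quoted only as such. Another 12 columns of single libraries match no sample and were not used.

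Genes were filtered (filterByExpr, minimum count 10), scaled by TMM and tested with edgeR 4.0.16 quasi-likelihood fits in R 4.3.3, two-sided, with Benjamini-Hochberg adjustment over 15685 genes and a threshold of 0.05. One fit had genotype alone and one added the batch tag. SEs are the log2 fold change over the root of F, and intervals are 95%, not adjusted over genes. RPKM used the table's gene lengths. The scripts were tested on simulated data. Alternatives used DESeq2 1.42.0 and limma 3.58.1. ERCC rows (0.566% to 1.35% of counts) stayed out of the tests. P-values set the genotype difference against the spread between these libraries, moderated over all genes. In the fit with the batch term this is the spread left after that term. Precision is limited by 3 libraries per group, and the part of depth was not tested.

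The members and gene lists were chosen with earlier results of these data known. Named from each list were its 3 genes with the smallest batch-term p, besides the members and Prmt8, and for each member its 2 nearest profiles among genes of at least 5 CPM; Ewsr1, Sf3b2 and Mat2a were named after their values were seen. One gene of the substrate list is not reported here and was left out of that list's counts and median.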

Additional observations from a re-analysis of the deposited data

How the results depend on the processing

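No member passed on genotype alone under any alternative run. With the batch term, 1 member was called higher (Prmt6) with no filter on low counts (log2 fold change 0.43, edgeR adjusted p = 0.0470) and with DESeq2 (0.45, adjusted p = 0.0434). DESeq2 also called 1 member lower (Prmt9, -0.34, adjusted p = 0.0278). Without knockouts 1 and 5 together, knockout 4 was the only knockout left, and the batch-term value of Prmt6 was 0.84. Genes called on genotype alone numbered 0 in the main analysis, 273 with ERCC scaling and 442 with DESeq2, each of 15685 tested, and 720 of 35183 with no filter. With the batch term, 1020 of 15685 became 393 with ERCC scaling and 2378 with DESeq2, again of 15685, and 2944 of 35183 with no filter. Leaving out 1 library gave 0 (without control 4 or knockout 1) to 2058 (without knockout 4), with 3 without control 2 and 149 without control 1. Prmt5 with the batch term missed the threshold without control 4 (-1.70, adjusted p = 0.0601) and without knockout 1 (-1.49, 0.0707). Inside batches Prmt6 had 0.17 and 0.75.

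Some values changed sign. On genotype alone this held with ERCC scaling for Prmt2 (-0.044) and Prmt6 (-0.24) and without knockout 5 for Prmt1 (0.028). With the batch term it held with ERCC scaling for Prmt1 (-0.43), Prmt2 (-0.16) and Carm1 (-0.36), and with no filter for Prmt1 (-0.014). Without control 2 it held for Prmt1 (-0.05) and Carm1 (-0.01), without knockout 1 for Prmt1 (-0.06), Carm1 (-0.016) and Prmt7 (0.083), without knockout 4 for Prmt1 (-0.094) and without knockouts 1 and 5 for Prmt7 (0.28). Over all fits with 1 library left out, genotype-alone values ran from -0.40 to 0.028 for Prmt1, 0.27 to 0.72 for Prmt2, -0.42 to -0.19 for Prmt3, -0.95 to -0.0023 for Carm1, 0.24 to 0.48 for Prmt6, -0.35 to -0.10 for Prmt7 and -0.33 to -0.19 for Prmt9. The batch-term values of Prmt1 ran from -0.094 to 0.11, Carm1 from -0.016 to 0.15 and Prmt7 from -0.29 to 0.083. ERCC scaling moved the median of all genes to -0.59 and -0.44 in the respective fits. The causes were not tested.

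Replicate numbers 1 and 4 occur in both genotypes, and deviations of same-numbered libraries correlated at 0.584 and 0.425 across 15685 genes, but no label pairs them. Both libraries numbered 1 are of batch A and both numbered 4 are of batch B. These correlations therefore cannot tell a pairing from a shared batch. A block on the replicate number called 768 genes (333 higher, 435 lower) and 0 members. Prmt1 was at 0.070, Carm1 at 0.062 and the median of the 7 members at 0.062. The numbers of control 2 and knockout 5 occur in a single genotype, so the genotype values of this block rest on the libraries numbered 1 and 4. Summing rows of a repeated symbol was not run, since no member symbol repeats.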
